A study of Macaca nemestrina with 15 samples.

Results

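The Toll-like receptor adaptors and kinases described here are 10 genes, *UNC93B1*, *LY96*, *MYD88*, *TIRAP*, *TICAM1*, *TICAM2*, *IRAK4*, *IRAK1*, *IRAK3* and *TRAF6*, taken as the rows of the count table that carry these names. All 10 were found among the 28865 features of the table, and all 10 were among the 12880 features left after the filter on low counts. RNA-seq was performed on peripheral blood mononuclear cells (PBMCs), a mixture of lymphocytes, monocytes and smaller populations, from 5 female pig-tailed macaques (*Macaca nemestrina*) named Z15228, Z13076, Z15339, Z15303 and Z15408. Each animal gave 1 library before treatment (labelled pre-treatment and Control), 1 at week 12 of weekly oral gavage with islatravir (ISL), an inhibitor of HIV reverse transcriptase, at 30 mg/kg, and 1 at week 18, after dosing had stopped. The study's descriptions differ on how long after the last dose this was, and dates in the library names set the later libraries 56 or 57 days and 84 days after the first, so the week labels are used here only as names. This made 5 libraries per time point and 15 in all. The week 18 libraries carry the treatment label Islatravir like those of week 12. The ages of the animals are not given in the sources used here. No untreated animals were among the libraries, so an effect of ISL and an effect of time cannot be told apart. The comparisons asked whether transcripts of this pathway differed during treatment, whether they differed after treatment had ended, and whether they moved between both of these times.

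Toll-like receptors are membrane proteins that bind microbial products, either at the cell surface or in endosomes, and are best known in blood from monocytes, dendritic cells and B-cells. A receptor that has bound its ligand recruits adaptor proteins through a shared domain. *MYD88*, helped by *TIRAP*, serves most receptors and assembles *IRAK4* and *IRAK1*, which pass the signal to the ubiquitin ligase *TRAF6* and on to NF-kappa-B. *TICAM1*, helped by *TICAM2*, serves the receptors for double-stranded RNA and lipopolysaccharide and leads towards interferon genes, while *UNC93B1* and *LY96* act before the adaptors, on the receptors themselves.

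Counts on genes ranged from 5610597 to 10379572 per library (median = 8871860), and the week 12 and week 18 libraries of Z15303 had the lowest totals, 5610597 and 5886482. Values below are CPM, counts relative to the library total, scaled by TMM, a factor per library that evens out composition. The markers of PBMCs were present: *LYZ* of monocytes averaged 1060 CPM over the 15 libraries, *LCK* of T-cells 1280 CPM, *GNLY* of natural killer cells 970 CPM and *CD79A* of B-cells 147 CPM. Against pre-treatment, the median of the log2 fold changes of 11 tested B-cell markers was −1.0 at week 12, then −1.07 at week 18, and their mean log2 CPM was lower in 5 of 5 animals both times. The pre-treatment library of Z15303 stood apart on interferon-stimulated genes, with a mean log2 CPM over 26 genes of 6.18 against 4.58 to 5.28 in the other pre-treatment libraries. The change of this animal at week 12 was −1.65 on that scale, whereas those of the other animals lay between −0.07 and 0.29. In bulk samples, fewer cells of a type and less RNA per cell cannot be told apart.

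No member passed the test in any comparison. At week 12 against pre-treatment, 7 of the 10 members had a negative log2 fold change and the median was −0.15, while the median over all 12880 features was 0.00 and 49.0% of them were negative. *IRAK3*, a brake on the pathway, and *LY96*, the partner of *TLR4* in binding lipopolysaccharide, were the members furthest below their pre-treatment level relative to their error, at 0.724 and 0.758 of it. At week 18, 6 of 10 were negative with a median of −0.07, close to the 49.8% of all features that were negative. From week 12 to week 18, 9 of 10 were positive with a median of 0.10, while 51.1% of all features were negative. This was not so in every animal: in Z15339 the median change was −0.15 and 7 of 10 members were lower. Both later comparisons share libraries with the first, so their medians are given side by side and were not set against each other.

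**Figure D1:**
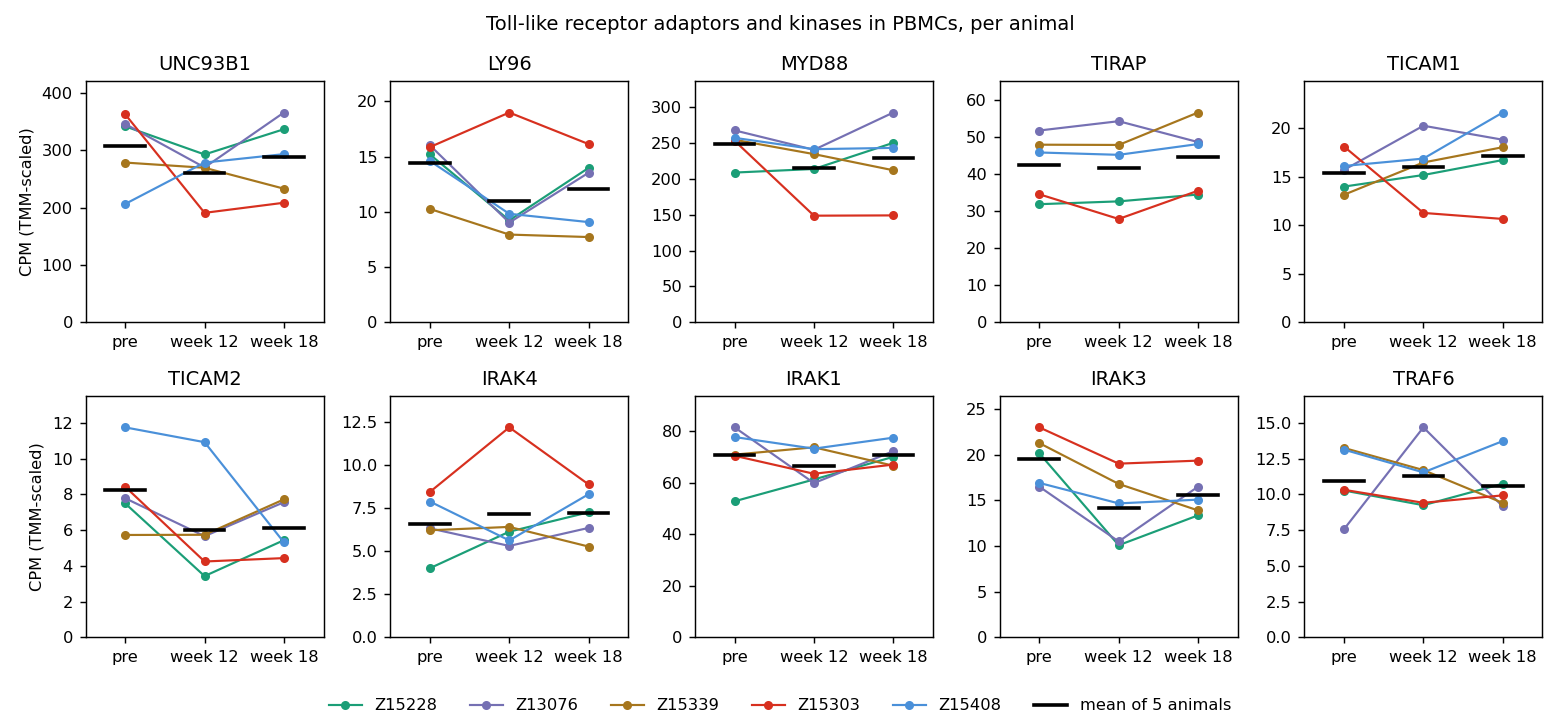
Scaled CPM (vertical axis, linear, from 0) of each of the 10 members at pre-treatment, week 12 and week 18. Coloured points and lines are the 5 animals and black bars are the mean of 5 animals. The groups overlap in every panel, and Z15303 is the lowest animal for *MYD88*, *UNC93B1* and *TICAM1* at both later times.

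By edgeR's quasi-likelihood test with Benjamini-Hochberg adjustment over all features, the adjusted p of every member was 1 in the 3 comparisons. Over all features, this test called 0% at week 12, 0% at week 18 and 0% between week 12 and week 18. With the animal as a block, which compares each animal with itself, 0.00776% of features were called at week 12 and 0.00776% at week 18, 0% between both times, and no member was among them. The smallest adjusted p of a member with the block was 0.651 at week 12 and 0.843 at week 18, both for *IRAK3*. DESeq2's Wald test, with or without the block, called no member either.

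Without adjustment, 1 of 10 members had p under 0.05 in the negative direction at week 12 (*IRAK3*), where 1.09% of all features did, and 0 of 10 in the positive direction, where 0.52% did. With the block, 2 of 10 were negative at this level (*IRAK3* and *LY96*) against 3.25% of all features. At week 18 the count without the block was 0 of 10 in each direction, against 1.08% of features lower and 0.613% higher, and with the block it was 1 of 10 lower (*IRAK3*) against 3.78%. Between week 12 and week 18 it was 0 of 10 in each direction, against 0.225% lower and 0.28% higher. One member, *IRAK3*, was lower in 5 of 5 animals at week 12, a pattern shown by 3.45% of features. The same held at week 18, where 3.49% of features were lower in 5 of 5, although 1 of these 5 changes was close to 0. Between week 12 and week 18, 0 of 10 members were higher in 5 of 5 animals, against 2.99% of features. No member had groups that did not overlap, against 0.28%, 0.334% and 0.101% of features in the 3 comparisons.

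**Figure D2:**
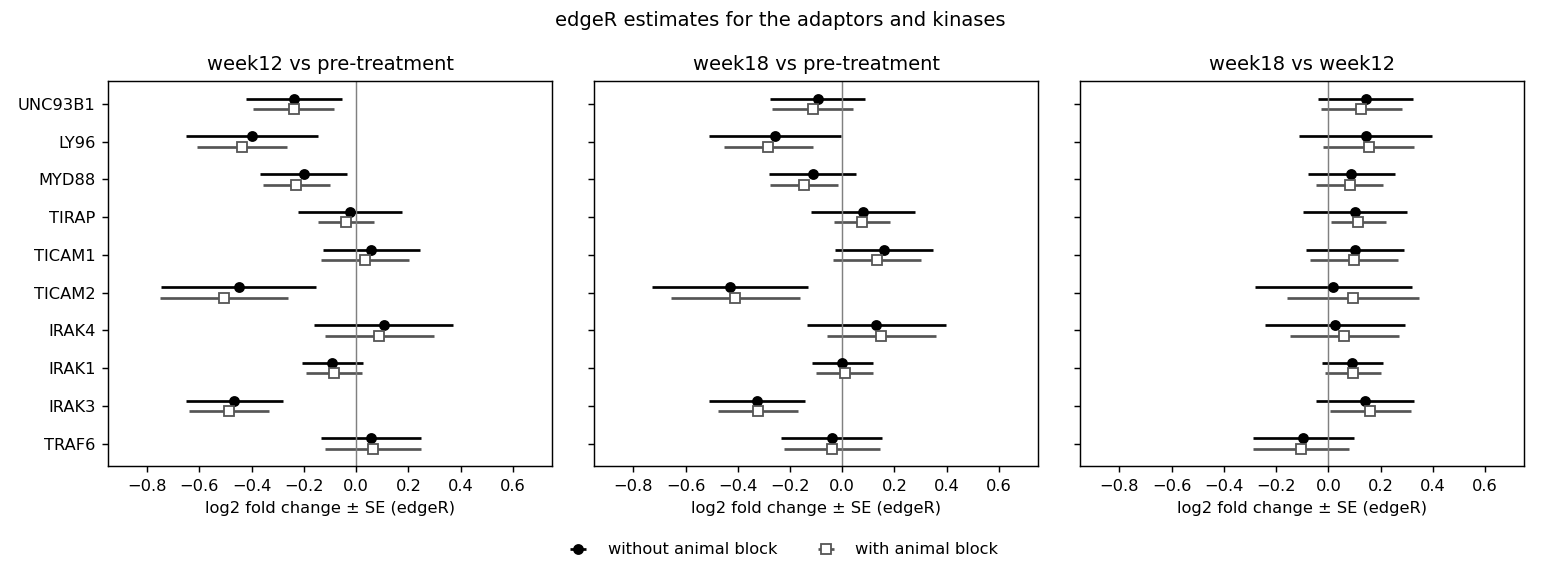
log2 fold change (horizontal axis) of each member in the 3 comparisons, estimated by edgeR without the animal block (filled circles) and with it (open squares), with bars of 1 SE. *IRAK3* at week 12 is −0.47 ± 0.19 without and −0.49 ± 0.15 with the block, and no estimate passed the adjusted threshold.

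Among the members that act on the receptors, *UNC93B1* is the endoplasmic reticulum protein that carries the nucleic acid-sensing receptors to endosomes. Its pre-treatment CPM were 341.5 in Z15228, 345.6 in Z13076, 278.4 in Z15339, 362.5 in Z15303 and 206.3 in Z15408. In the same order of animals they were 292.5, 269.9, 269.3, 190.8 and 278.4 at week 12, and 336.5, 365.6, 232.9, 208.4 and 293.1 at week 18. The animals did not move together: Z15303 went from the highest of the 5 to the lowest, Z15408 went from the lowest to a higher rank, and the groups overlapped. The mean was 306.9 ± 64.7 CPM (SD, n = 5) before treatment and 260.2 ± 39.9 and 287.3 ± 66.7 at the later times. As log2 fold changes these were −0.24 ± 0.18 (SE) and −0.09 ± 0.18, or −0.07 and 0.07 once Z15303 was left out.

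*LY96*, also called MD-2, is the secreted protein that holds lipopolysaccharide at the surface receptor *TLR4*. Its CPM in Z15228, Z13076, Z15339, Z15303 and Z15408 were 15.2, 16.0, 10.3, 15.9 and 14.6 before treatment. At week 12 they were 9.2, 9.0, 7.9, 19.0 and 9.8, and at week 18 they were 13.99, 13.5, 7.7, 16.1 and 9.1. At week 12 *LY96* was lower in 4 of 5 animals, with log2 changes of −0.81 to −0.36, and higher by 0.26 in Z15303 alone, which made the groups overlap. The log2 fold change at week 12 was −0.40 ± 0.25 (edgeR quasi-likelihood unadjusted p = 0.134), and with the block −0.44 ± 0.17 (edgeR quasi-likelihood unadjusted p = 0.0208, adjusted p = 0.852). Without Z15303 it was −0.63 at week 12 and −0.34 at week 18, against −0.26 ± 0.25 at week 18 with all 5 animals.

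*TLR4*, the receptor that *LY96* serves, averaged 29.2 ± 9.52 CPM (SD, n = 5) before treatment, with 24.9 ± 5.80 and 28.3 ± 7.74 at the later times. For week 12 this gave −0.23 ± 0.23 on the log2 scale, and −0.22 ± 0.21 with the block. *TLR2* was at −0.67 ± 0.32 (edgeR quasi-likelihood unadjusted p = 0.0565), and with the block at −0.74 ± 0.23 (edgeR quasi-likelihood unadjusted p = 0.00482, adjusted p = 0.627). Both genes were lower in 5 of 5 animals, as were 3.45% of all features. Neither passed the test. *LY96* was held by 69 to 148 counts per library, so counting error alone was 8.22% to 12.0% of each value.

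Among the adaptors, *MYD88* is the one shared by most Toll-like receptors and by the receptors of interleukin-1. Before treatment its CPM were 208.8 in Z15228, 267.6 in Z13076, 254.5 in Z15339, 253.1 in Z15303 and 257.2 in Z15408. They were 213.8, 240.5, 234.5, 148.7 and 241.4 at week 12 and 250.3, 292.5, 212.0, 149.1 and 243.2 at week 18, in the same order. Z15303 stood well below the other 4 animals at both later times but not before treatment, and the other 4 stayed within their pre-treatment range or close to it. Its change was −0.77 at week 12 on the log2 scale, while those of the other animals ran from −0.15 to 0.03. Over 5 animals the log2 fold changes were −0.20 ± 0.17 for week 12 and −0.11 ± 0.17 for week 18, which became −0.08 and 0.02 once Z15303 was left out.

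*TICAM1*, also called TRIF, is the adaptor of the double-stranded RNA receptor *TLR3* and of the endosomal route from *TLR4*. Its CPM were 13.97, 15.7, 13.1, 18.1 and 16.1 before treatment in Z15228, Z13076, Z15339, Z15303 and Z15408. They were 15.2, 20.2, 16.4, 11.3 and 16.9 at week 12, and 16.7, 18.8, 18.0, 10.6 and 21.6 at week 18. In 4 animals *TICAM1* was higher at both later times, by 0.07 to 0.36 and by 0.25 to 0.45 on the log2 scale, and in Z15303 its changes were −0.67 and −0.75, from the highest value of the 5 to the lowest. Over 5 animals this came to a log2 fold change of 0.06 ± 0.19 for week 12 and 0.16 ± 0.19 for week 18, or 0.23 and 0.36 once Z15303 was left out. No adjusted p by edgeR's quasi-likelihood test fell below 0.05 without this animal either.

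*TICAM2*, or TRAM, is the adaptor that brings *TICAM1* to *TLR4*, and it had some of the lowest counts of the members, 23 to 109 per library, with counting errors of 9.58% to 20.9%. Its CPM were 7.5, 7.8, 5.7, 8.4 and 11.8 before treatment, 3.4, 5.7, 5.7, 4.2 and 10.9 at week 12, and 5.4, 7.6, 7.7, 4.4 and 5.3 at week 18, in Z15228, Z13076, Z15339, Z15303 and Z15408. It was lower in 4 of 5 animals at each later time, with Z15339 as the animal in which it was not, and the groups overlapped. The estimates were −0.45 ± 0.30 for week 12 and −0.43 ± 0.30 for week 18 on the log2 scale. In the human annotation *TICAM2* is joined by a readthrough transcript to its neighbour *TMED7*, and whether reads were split between them or counted by strand is not given in the sources used here, so the counts of *TICAM2* are uncertain. *TMED7* itself had a log2 fold change of −0.34 ± 0.12 at week 12 and −0.26 ± 0.12 at week 18.

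*TIRAP*, the adaptor that brings *MYD88* to *TLR2* and *TLR4*, varied between animals more than over time. It ranged from 31.8 to 51.7 CPM before treatment, from 27.9 to 54.2 at week 12 and from 34.4 to 56.5 at week 18, and Z15228 and Z15303 were the lowest animals at all 3 times. Its log2 fold change was −0.03 ± 0.20 at week 12 and 0.08 ± 0.20 at week 18. With the block the SE was 0.11 in both comparisons, the lowest of the members, and the estimates were −0.04 and 0.08.

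Among the kinases, *IRAK3*, also called IRAK-M, lacks kinase activity and restrains signalling through *IRAK4* and *IRAK1*, and it is known mostly from monocytes and macrophages. Its CPM before treatment were 20.1 in Z15228, 16.5 in Z13076, 21.2 in Z15339, 23.0 in Z15303 and 16.9 in Z15408. At week 12 they were 10.1, 10.5, 16.8, 19.0 and 14.6 in the same order, and at week 18 they were 13.3, 16.5, 13.9, 19.3 and 15.1. At week 12 *IRAK3* was lower in every animal, most in Z15228 (−0.98 on the log2 scale) and Z13076 (−0.64) and with changes of −0.34 to −0.20 in the other 3, yet the groups overlapped because the animals started from different levels. At week 18 it was lower in Z15228, Z15339, Z15303 and Z15408, while Z13076 was back at its own pre-treatment CPM.

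The mean of *IRAK3* was 19.5 ± 2.80 CPM (SD, n = 5) before treatment, then 14.2 ± 3.90 and 15.6 ± 2.40 at the later times. In the test, the log2 fold change at week 12 was −0.47 ± 0.19 (edgeR quasi-likelihood unadjusted p = 0.0229, adjusted p = 1), and with the block it was −0.49 ± 0.15 (edgeR quasi-likelihood unadjusted p = 0.00542, adjusted p = 0.651). At week 18 it was −0.33 ± 0.19 (edgeR quasi-likelihood unadjusted p = 0.097), and with the block −0.32 ± 0.15 (edgeR quasi-likelihood unadjusted p = 0.0483, adjusted p = 0.843). The direction at both times was kept when any 1 animal was left out, with estimates at week 12 from −0.53 to −0.35, the latter without Z15228. In the 3 animals whose library names carry the same dates the mean change at week 12 was −0.27, and in the 2 animals with dates of their own it was −0.81.

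*IRAK1*, the kinase that leaves the receptor complex to meet *TRAF6*, had the narrowest errors without the block. It ranged from 52.8 to 81.5 CPM before treatment, from 59.9 to 73.7 at week 12 and from 66.6 to 77.5 at week 18, and its SD over the 5 animals was 11.0, 6.68 and 4.45 CPM at these times. The log2 fold change was −0.09 ± 0.12 at week 12 and 0.00 ± 0.12 at week 18. Z15228, the lowest animal before treatment, was higher by 0.21 and 0.41 on the log2 scale, and Z13076, the highest, had changes of −0.44 and −0.17.

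*IRAK4*, the first kinase to join *MYD88*, was counted 39 to 76 times per library, with a counting error of 11.5% to 16.0%. It ranged from 4.0 to 8.4 CPM before treatment, from 5.3 to 12.2 at week 12 and from 5.3 to 8.9 at week 18, with Z15303 the highest animal at all 3 times. The log2 fold change was 0.11 ± 0.27 at week 12 and 0.13 ± 0.27 at week 18. Without Z15303 the week 12 estimate was −0.05, and with the block it was −0.016 without Z15228, so its direction turned when either of these animals was left out.

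*TRAF6*, the ubiquitin ligase on which the *MYD88* route converges, ranged from 7.6 to 13.3 CPM before treatment, from 9.2 to 14.7 at week 12 and from 9.2 to 13.7 at week 18. It was lower in 4 of 5 animals at week 12, with log2 changes of −0.18 to −0.13, and higher by 0.94 in Z13076, which went from the lowest value of the 5 to the highest. The log2 fold change at week 12 was 0.06 ± 0.19, and without Z13076 it was −0.16. At week 18 it was −0.04 ± 0.19. *TRAF6* was also the only member with a negative estimate from week 12 to week 18, at −0.10 ± 0.19.

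**Figure D3:**
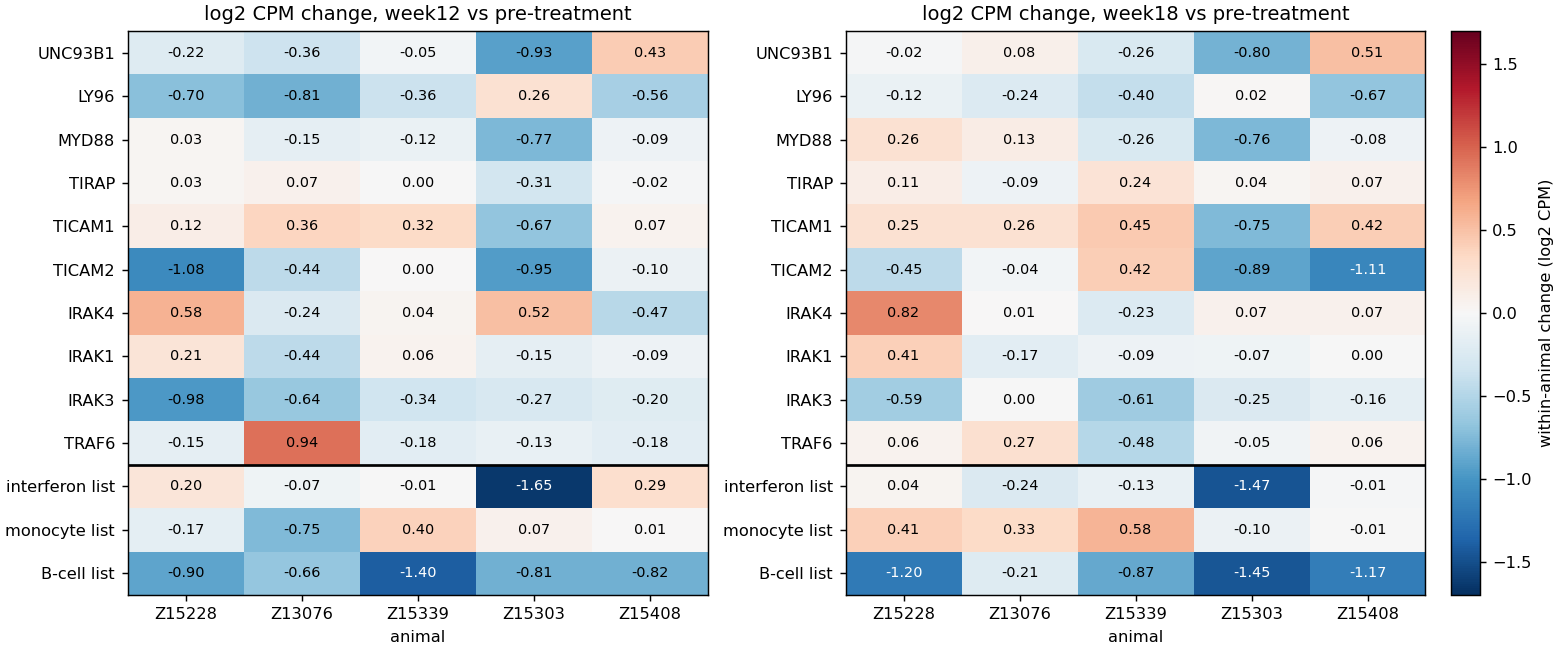
Change in log2 CPM within each animal (columns) from pre-treatment to week 12 (left) and to week 18 (right) for the 10 members, and below the black line for the mean log2 CPM of the interferon-stimulated, monocyte and B-cell lists. Blue is lower and red is higher than pre-treatment, and the column of Z15303 holds the most negative values of *UNC93B1*, *MYD88*, *TICAM1* and the interferon list.

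Animals differed in which members were low. At week 12 the median change over the 10 members was −0.06 in Z15228, −0.30 in Z13076, −0.03 in Z15339, −0.29 in Z15303 and −0.10 in Z15408. The 4 lowest members in Z13076 were *LY96*, *IRAK3*, *TICAM2* and *IRAK1*, and in Z15303 they were *TICAM2*, *UNC93B1*, *MYD88* and *TICAM1*, with *TICAM2* in both. At week 18 the medians were 0.09, 0.00, −0.24, −0.16 and 0.03 in the same order of animals. From week 12 to week 18 they were 0.22, 0.28, −0.15, 0.04 and 0.08.

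In Z15303 the interferon-stimulated list, *MYD88*, *UNC93B1* and *TICAM1* were all lower at both later times. They were not alone in this: *TICAM2* had log2 changes of −0.95 and −0.89 in that animal. Genes outside the interferon list were also lower in it at week 12, such as *TLR2* (−1.48) and *PIK3AP1* (−1.32), while *LY96* (0.26) and *IRAK4* (0.52) were higher. The summed CPM of the 26 tested genes of the interferon list ranged from 1174 to 4132 before treatment, from 1244 to 1893 at week 12 and from 1222 to 1650 at week 18. The highest of these was the pre-treatment library of Z15303. The mean log2 CPM of the list changed by −1.65 and −1.47 in Z15303, and by −0.24 to 0.29 in the other animals. No tested gene of the list was at 0 in all libraries, which the filter on low counts ensures. The part of the interferon-stimulated genes in the changes of *MYD88*, *UNC93B1* and *TICAM1* was not tested, and without Z15303 the 3 members were at −0.08, −0.07 and 0.23 at week 12, as above.

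**Figure D4:**
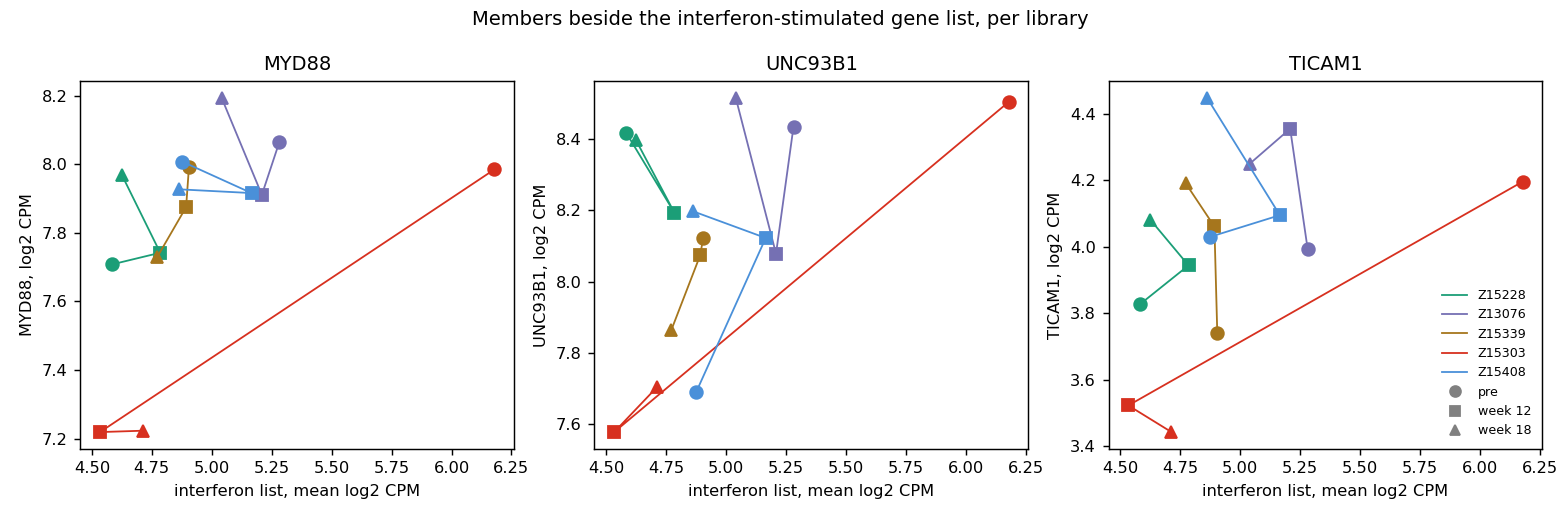
log2 CPM of *MYD88*, *UNC93B1* and *TICAM1* (vertical axes, which do not start at 0) against the mean log2 CPM of the interferon-stimulated list (horizontal axis) in the 15 libraries. Colours and lines join the 3 libraries of an animal, and shapes mark the time point. The pre-treatment library of Z15303 lies apart at the right, and its later libraries lie at the lower left of each panel.

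Monocyte markers were lower in some animals and higher in others. For 16 tested monocyte markers the median of the log2 fold changes was −0.13 at week 12 (0.02 without Z13076), then 0.22 at week 18, and their summed CPM ranged from 2875 to 5259 before treatment, from 2934 to 4469 at week 12 and from 3286 to 6565 at week 18. Their mean log2 CPM changed by −0.17 in Z15228, −0.75 in Z13076, 0.40 in Z15339, 0.07 in Z15303 and 0.01 in Z15408 at week 12. At week 12 *IRAK3* and this mean were both lower in Z15228 and Z13076, the animals with the most negative changes of *IRAK3*, and in the other 3 *IRAK3* was lower while the mean was higher. At week 18 the mean changed by 0.41 in Z15228, 0.33 in Z13076, 0.58 in Z15339, −0.10 in Z15303 and −0.01 in Z15408, so that both were lower in Z15303 and Z15408, *IRAK3* was lower and the mean higher in Z15228 and Z15339, and *IRAK3* was level and the mean higher in Z13076. The part of monocytes in the changes of *IRAK3* was not tested. The B-cell markers were lower in all 5 animals at both times, with changes of −1.40 to −0.66 at week 12, and their summed CPM ranged from 276.2 to 1108 before treatment, from 165.8 to 565.5 at week 12 and from 211.9 to 469.4 at week 18. The part of B-cells in the changes of the members was not tested.

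By their medians, the markers of the other mononuclear and contaminating cell types moved less than those of B-cells. The median log2 fold change at week 12 and week 18 was 0.15 and 0.08 for 14 T-cell markers, 0.14 and −0.06 for 11 natural killer cell markers, and 0.01 and −0.30 for 8 markers of plasmacytoid dendritic cells, which are rich in endosomal receptors. It was −0.19 and 0.33 for 9 neutrophil markers, 0.25 and 0.14 for 8 platelet markers, and −0.50 and −0.49 for 4 red cell markers. Summed CPM per library ranged from 239.8 to 672.1 for the neutrophil list, from 3034 to 11350 for the platelet list and from 43.1 to 822.8 for the red cell list. No tested marker of these lists was at 0 in all libraries, which the filter on low counts ensures. The part of these cell types in the members' values was not tested.

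The rest of the pathway was read from 6 lists of 97 genes around the members, of which 88 were in the table and 85 were tested. No gene of these lists was called at an adjusted p of 0.05 by edgeR's quasi-likelihood test, with or without the block. Calls of these genes by DESeq2 are not given here, and the study itself reported 1 of them, *NFKBIZ*, by that test. At an unadjusted p under 0.05, 10 of 85 were lower and 0 higher at week 12, against 1.09% and 0.52% of all features. At week 18, 9 were lower and 0 higher, against 1.08% and 0.613%. Between both times 0 were lower and 4 higher, against 0.225% and 0.28%. At week 12, 69 of 85 had a negative log2 fold change, against 49.0% of all features, and at week 18, 62 of 85, against 49.8%. The medians were −0.14, −0.09 and 0.03 in the 3 comparisons, against 0.00 over all features in each. When Z15303 was left out, the week 18 medians of the receptors (0.02), transcription factors (0.01) and chaperones (0.00) were no longer negative.

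**Figure D5:**
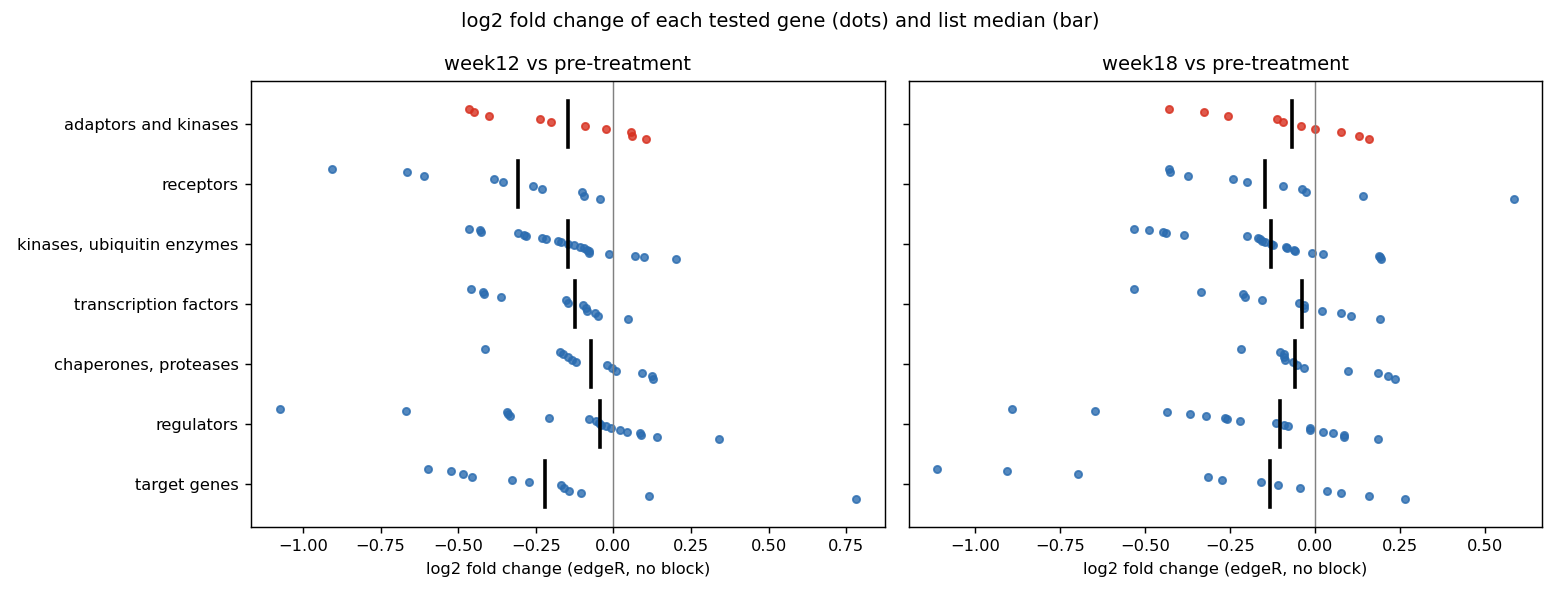
log2 fold change (horizontal axis, edgeR without the block) of every tested gene of the members (red) and of 6 lists around them (blue) at week 12 and at week 18 against pre-treatment, with the median of each list as a black bar. In this fit all 10 tested receptors and co-receptors lie below 0 at week 12, with a median of −0.31.

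Receptors and co-receptors lay lowest at week 12. Of 13 listed, *TLR5*, *TLR6* and *TLR9* are not analysed here. Without the block, the 10 tested were all negative at week 12 with a median of −0.31, and 8 of 10 were negative at week 18 with a median of −0.15. The week 12 direction was not firm for every gene. With the block *CD14* was at 0.0078, and *LY86* was higher in 3 of 5 animals. Estimates turned positive for *LY86* without Z13076 (0.17), *TLR7* without Z15303 (0.15) and *TLR3* without Z15408 (0.0093). *CD180*, a receptor-like protein of B-cells and monocytes that resembles *TLR4*, averaged 47.9 CPM before treatment and 31.3 at week 12, a log2 fold change of −0.61 ± 0.19 (edgeR quasi-likelihood unadjusted p = 0.00576, adjusted p = 1). It was lower in 5 of 5 animals at week 12, as were 3.45% of all features. At week 18 it was at −0.43 ± 0.19 and lower in 3 of 5, and at −0.24 without Z15303. *TLR10*, a receptor found on B-cells, had −0.91 ± 0.59 at week 12 (edgeR quasi-likelihood unadjusted p = 0.142) and was lower in 5 of 5 animals. It was held by only 10 to 81 counts per library at week 12 and 6 to 68 at week 18. With the block it was at −1.09 ± 0.37 (edgeR quasi-likelihood unadjusted p = 0.00923, adjusted p = 0.743). *CD14*, which hands lipopolysaccharide to *LY96* and *TLR4*, had −0.10 ± 0.32 at week 12, or 0.20 without Z13076. From week 12 to week 18 the CPM of *CD14* averaged 489.9 and 785.5, a log2 fold change of 0.68 ± 0.32 (edgeR quasi-likelihood unadjusted p = 0.0468) that was 0.45 without Z13076, and 9 of the 10 receptors and co-receptors were positive with a median of 0.19.

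The 21 tested kinases and ubiquitin enzymes, which act around and after the adaptors, had medians of −0.15 at week 12, −0.13 at week 18 and 0.00 between both times. In the 2 animals with dates of their own the week 12 median was 0.05, opposite in sign. *PIK3AP1*, which links receptors to phosphoinositide kinase, averaged 255.1 CPM before treatment and 184.6 at week 12, a log2 fold change of −0.47 ± 0.20, and it was −0.45 ± 0.20 at week 18. It was lower in 4 of 5 animals at both times and most in Z15303 (−1.32 at week 12), and the week 12 estimate was −0.28 without that animal. *TBK1*, the kinase that activates *IRF3* after *TICAM1*, was at −0.43 ± 0.19 at week 12, lower in 4 of 5 animals and most in Z15303 (−1.08). *MAP3K8*, a kinase of the ERK route, was at −0.49 ± 0.19 at week 18 and lower in 4 of 5. These are the genes of the list with unadjusted p under 0.05 in both the fit with and the fit without the block.

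The 12 tested transcription factors had medians of −0.12 at week 12, −0.04 at week 18 and 0.07 between both times. *REL*, a subunit of NF-kappa-B, averaged 28.3 CPM before treatment and 21.2 at week 12, a log2 fold change of −0.42 ± 0.19, and *ATF3*, a stress-induced factor that dampens inflammatory genes, was at −0.46 ± 0.18. Both were lower in 5 of 5 animals at week 12, as were 3.45% of all features. From week 12 to week 18 *ATF3* was at 0.43 ± 0.18 and *FOS*, a subunit of AP-1, at 0.34 ± 0.14. Each was higher in 5 of 5 animals, as were 2.99% of all features. For *FOS* the groups did not overlap, as for 0.101% of features. Both genes were picked by their unadjusted p, and neither passed the adjusted threshold. The estimate of *FOS* was 0.21 without Z15408.

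The 12 chaperones, proteases and trafficking genes had medians of −0.07, −0.06 and 0.08 in the 3 comparisons, close to 0 beside the receptors they serve. *CTSS*, an endosomal protease that is also on the monocyte list, averaged 507.6 CPM before treatment and 381.1 at week 12, a log2 fold change of −0.41 ± 0.18. It was lower in 5 of 5 animals, as were 3.45% of all features. *SLC11A1*, a metal transporter of phagocyte endosomes, was at 0.35 ± 0.16 from week 12 to week 18 but higher in only 3 of 5 animals, and at 0.15 without Z13076.

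The 18 regulators, most of them known like *IRAK3* to restrain the pathway, had medians of −0.04 at week 12, −0.10 at week 18 and 0.00 between both times. The list also holds *IRAK2*, *PELI1* and *NFKBIZ*, which are known to promote parts of the response as well. *NFKBIZ*, an inducible nuclear protein of the I-kappa-B family, averaged 160.7 CPM before treatment, then 101.3 and 102.7 at the later times. The study lists *NFKBIZ* among its differentially expressed genes during treatment, by DESeq2's Wald test. It was lower in 5 of 5 animals at both times, as were 3.45% of all features at week 12 and 3.49% at week 18. Its log2 fold changes were −0.67 ± 0.24 and −0.65 ± 0.24, and with the block −0.67 ± 0.12 (edgeR quasi-likelihood adjusted p = 0.101) and −0.63 ± 0.12 (edgeR quasi-likelihood adjusted p = 0.0599). *PELI1*, a ubiquitin ligase that acts on *IRAK1*, was at −0.33 ± 0.13 and −0.32 ± 0.13 at the 2 times, and *ZC3H12A*, an RNase that degrades inflammatory transcripts, at −0.37 ± 0.16 at week 18. *SOCS3*, an inhibitor of cytokine receptors, was at −1.08 ± 0.44 at week 12, where changes ran from −2.92 in Z13076 to 0.23 in Z15339.

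Of 19 listed target genes, 12 were tested, with medians of −0.22 at week 12, −0.13 at week 18 and 0.00 between both times. *CD40*, a co-stimulatory receptor of B-cells and monocytes, averaged 17.1 CPM before treatment and 10.5 at week 18, a log2 fold change of −0.70 ± 0.27. It was lower in 5 of 5 animals at week 18, as were 3.49% of all features. *CXCL10*, a chemokine induced by interferon, was at −1.11 ± 0.44 at week 18, from 5.93 to 2.73 CPM, lower in 4 of 5, and at −0.64 without Z13076. The 26 tested interferon-stimulated genes, counted separately, had medians of −0.30 at week 12, −0.40 at week 18 and −0.14 between both times, and 0 of them were called. Without Z15303 these medians were 0.11, −0.12 and −0.18, so the direction at week 12 turned when that animal was left out.

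Over the 15 libraries, which come from 5 animals and so are not independent, members were compared with 10763 other named features by Pearson's r of log2 CPM, as a description only. *IRAK3* was most like *LYN* (r = 0.914), a Src family kinase of B-cells and myeloid cells, followed by *DRAM2* (0.855) and *RELT* (0.851). *MYD88* was most like *PPM1F* (0.942), *MAP3K3* (0.94) and *STAT6* (0.926), *TIRAP* like *PLEKHN1* (0.932), *C1QL1* (0.93) and *EOGT* (0.9), and *TICAM1* like *GNAI3* (0.881), *NUP93* (0.848) and *RBM22* (0.847). *UNC93B1* was most like *NFYC* (0.863), *POR* (0.856) and *DDOST* (0.848), and *LY96* like *ATG12* (0.862), *MCUB* (0.857) and *GNG3* (0.85). *TICAM2* was most like *MAT2A* (0.845), *IRAK1* like *AP2A1* (0.87), *IRAK4* like *PLD6* (0.87) and *TRAF6* like *CASP8* (0.838).

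Among the members themselves, the pair most alike was *MYD88* and *TICAM1* (r = 0.737), followed by *MYD88* and *UNC93B1* (0.679), the genes that were lowest in Z15303 at the later times. The pair least alike was *TIRAP* and *LY96* (−0.598).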

How the data were processed

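PBMC RNA was amplified by SMART-Seq v4 and made into libraries with Nextera XT, and the authors aligned the reads with STAR 2.7.9a to an Ensembl annotation of *M. nemestrina* and tallied them per gene. They deposited these counts as 1 table of 15 libraries, with no normalization or filter, and the values are raw counts. Libraries were matched to animals and time points by the subject and time point labels, and no columns were left unmatched. The totals of 5610597 to 10379572 counts per library set the precision: the counting error of a member's value was 1.73% at best and 20.9% at worst, and such errors cover counting only.

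Counts were normalized by TMM, filtered with filterByExpr (minimum count 10) and tested in R 4.3.3 with the quasi-likelihood F test of edgeR 4.0.16 (limma 3.58.1), on the time point alone, on all 15 libraries and over all 12880 features, at a Benjamini-Hochberg adjusted p of 0.05. SE was derived from the log2 fold change and F. log2 CPM used a prior count of 2. The study's methods name DESeq2's Wald test, which was run as an alternative (DESeq2 1.42.0). The steps were also run on simulated data, whose outcome is not given here and was not used for any result.

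The 3 libraries of an animal carry its identifier and so pair by design. Deviations from the time point means had a mean correlation of 0.551 within animals (lowest 0.351, 15 pairs). Between different animals at different time points it was −0.137 (60 pairs). That negative value largely follows from subtracting the time point means, so it is not a separate contrast. The biological coefficient of variation was 29.3% without the block of animals, against 16.9% with it. The fit without the block treats the 3 libraries of an animal as independent, so its p-values ignore this pairing. The p-values with the block set each change against the spread left after the levels of the animals are taken out.

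The members and the gene lists were chosen with earlier results of these data known, so counts over them are descriptions. Pathway genes are named where the unadjusted p was under 0.05 in the same direction with and without the block, at most 5 per list and comparison, beside all members, the features most like each member, and the marker genes of highest CPM. *TLR2*, *TLR3*, *TLR4*, *TLR7*, *TLR10* and *LY86*, as well as *CD14* at week 12, were named after their values were seen. Alternatives were the block, DESeq2, other scalings, no filter, a prior count of 0.5, leaving out each animal, animals by library date, and lists without shared genes. No gene lengths were at hand, so levels were not compared between genes, and sequences of the members were not used here.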

Additional observations from a re-analysis of the deposited data

Results flagged for a closer look

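Values of 1 animal that stood apart from the other 4 were looked for by the gap of the highest or lowest animal to its neighbour, divided by the range of the 5 (Dixon's critical value, 0.71). Of 69 groups of 5 examined, 13 had such a value. Chance alone gives about 1 in 20 for separate groups, but these groups share libraries and animals and are not independent. The count was not tested against that rate.

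Z15303 supplied 9 of the 13. At week 12 it had 19.0 CPM of *LY96* against 7.95 to 9.83 in the others, 12.2 CPM of *IRAK4* against 5.30 to 6.40, and 190.8 CPM of *UNC93B1* against 269.3 to 292.5. Its log2 change at week 12 was −0.77 for *MYD88*, −0.31 for *TIRAP* and −0.67 for *TICAM1*, and at week 18 it was −0.75 for *TICAM1*. The mean log2 CPM of its interferon-stimulated genes changed by −1.65 at week 12 and −1.47 at week 18. This animal's week 12 library also had the lowest total of the series, 5610597 counts. The part of interferon-stimulated genes or of depth in these values was not tested.

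The other 4 came from 3 animals. In Z15228, *MYD88* was 208.8 CPM before treatment against 253.1 to 267.6 in the others, and the log2 change of *IRAK4* at week 18 was 0.82 against −0.23 to 0.07. In Z15339, *LY96* was 10.3 CPM before treatment against 14.6 to 16.0. In Z13076, the log2 change of *TRAF6* at week 12 was 0.94 against −0.18 to −0.13.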

How the results depend on the processing

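No member passed the threshold under any alternative. Over all alternatives the adjusted p of *IRAK3* ran from 0.44 to 1 at week 12 and from 0.406 to 1 at week 18, lowest by edgeR with the replicate block and 1 animal left out. No scaling moved the median of all features by over 0.1, and of 600 alternative values of the members 49 changed sign. The number of features called at week 12, 0 without the block, was 1 with it, 1 by DESeq2 and 27 by DESeq2 with the block. At week 18 it was 1 with the block and 43 by DESeq2 with the block, and between week 12 and week 18 it was 1 by DESeq2 with the block. With 1 animal left out the number called was 0 to 6 at week 12, the 6 with the block and without Z13076, and 0 to 17 at week 18, the 17 also without Z13076 and 3 without Z15408, both with the block. The median of the members at week 18 was 0.073 in the 2 animals with their own dates. Of the list medians, 5 moved by more than the SD between animals, all in those 2 animals. Without TMM, the log2 fold change of *IRAK1* at week 18 was −0.025. Directions were opposite to those of all 5 animals, with values and no test, in the 3 animals of shared dates for *TICAM1* (−0.096) and *TRAF6* (−0.16) at week 12, and for *IRAK1* (−0.055) and *IRAK4* (−0.028) at week 18, and for *MYD88* (−0.043), *TICAM2* (−0.18), *IRAK3* (−0.069), *IRAK4* (−0.058), *TRAF6* (0.0046), *LY96* (−0.13) and *UNC93B1* (−0.0026) for week 18 vs. week 12. They were opposite in the 2 other animals for *TIRAP* (0.051) at week 12, and for *MYD88* (0.19), *TRAF6* (0.17) and *UNC93B1* (0.030) at week 18, and for *TIRAP* (−0.039) for week 18 vs. week 12. Over the fits without the block that left out 1 animal in turn, the members whose log2 fold change took both signs were *TICAM1* at −0.033 to 0.23, *TRAF6* at −0.16 to 0.13, *TIRAP* at −0.057 to 0.029 and *IRAK4* at −0.046 to 0.25 at week 12, *IRAK1* at −0.076 to 0.049, *TRAF6* at −0.098 to 0.084, *MYD88* at −0.19 to 0.021 and *UNC93B1* at −0.22 to 0.074 at week 18, and *TICAM2* at −0.10 to 0.40, *IRAK4* at −0.11 to 0.21 and *TRAF6* at −0.20 to 0.065 for week 18 vs. week 12. With the block and 1 animal left out the direction also turned. Without Z15228 it was so for *IRAK4* (−0.016) at week 12, and for *IRAK1* (−0.078) and *IRAK4* (−0.0016) at week 18, and for *TICAM2* (−0.029) for week 18 vs. week 12. Without Z13076 it was so for *TICAM1* (−0.053), *IRAK1* (0.0057) and *TRAF6* (−0.16) at week 12, and for *TRAF6* (0.064) for week 18 vs. week 12. Without Z15339 it was so for *TICAM1* (−0.036) at week 12, and for *TRAF6* (0.080) at week 18, and for *TICAM2* (−0.0098) for week 18 vs. week 12. Without Z15303 it was so for *TIRAP* (0.030) and *IRAK4* (−0.025) at week 12, and for *MYD88* (0.022) and *UNC93B1* (0.080) at week 18. Without Z15408 it was so for *IRAK4* (−0.061) for week 18 vs. week 12. The replicate block changed the call of no member. The cause of these differences was not tested. With 5 animals and counts as low as 23 per library for *TICAM2*, changes of the size seen here could not be separated from the spread between animals, and the absence of a call does not show that a member did not change.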
